A study of Mus musculus with 12 samples.

Results

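Levels of 8 genes of steroid and pregnancy hormone signalling were examined in the gonadal (peri-uterine) white fat of pregnant mice, among 20632 genes counted. The set holds the receptors for estrogen (Esr1), progesterone (Pgr), glucocorticoids (Nr3c1), mineralocorticoids (Nr3c2), prolactin (Prlr) and growth hormone (Ghr), with the estrogen-induced gene Greb1 and the steroid-activating enzyme Hsd11b1. All 8 symbols were found in the count files and 7 passed the filter on low counts; Nr3c2 did not. The receptors and Hsd11b1 were listed for their function, whereas Greb1 was chosen by its measured level, which had been seen to be lower in KO vehicle than in WT vehicle. For that contrast the values of all 8 genes are therefore given as a description, and Greb1 is given as a description throughout.

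The 12 libraries came from mice at day E17.5 of pregnancy, 4 in each of 3 groups. KO Treg and KO vehicle animals are labelled as Tnfrsf11a (Rank) knockouts with Foxn1 Cre, the first given the treatment labelled Treg (the usual short form of regulatory T cell, whose source and dose the labels do not give) and the second given vehicle. WT vehicle animals carry the same Tnfrsf11a label without Cre and were also given vehicle, and neither strain nor maternal age is stated. Foxn1-Cre acts in thymic epithelium, so the fat itself is not its target: Tnfrsf11a averaged 7.78 ± 1.92 CPM in KO Treg, 7.61 ± 1.11 CPM in KO vehicle and 8.20 ± 2.51 CPM in WT vehicle (SD, n = 4 each), which checks nothing about a deletion in the thymus.

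Steroid receptors are transcription factors that bind a hormone inside the cell and then bind DNA at hormone response elements. In mouse white fat the estrogen receptor encoded by Esr1 restrains fat storage, and the glucocorticoid receptor acts on lipolysis and on the making of new adipocytes. The receptors for prolactin and growth hormone are membrane proteins of the cytokine receptor family that signal through the kinase JAK2 and the transcription factors STAT5A and STAT5B. Circulating estrogens, progesterone, glucocorticoids and placental relatives of prolactin all rise in the pregnant mouse, and growth hormone opposes fat storage in adipose tissue.

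Each library is a 3' end library, in which a transcript gives reads near its end whatever its length. Levels are given as CPM, that is, counts scaled to the same TMM-adjusted library total. Library totals were 6583263 to 8746946 counts in KO Treg, 8350348 to 9617503 in KO vehicle and 5551967 to 12972655 in WT vehicle. At these totals, before TMM adjustment, 3 counts, taken as the limit that counting error sets, correspond to 0.231 to 0.540 CPM. The numbers that the labels give the animals form a lower and a higher series, which the labels do not describe as batches; KO Treg and WT vehicle have 2 animals in each, and KO vehicle has none in the higher. The adipocyte markers Adipoq, Plin1, Cidec, Fabp4, Lipe, Lpl and Retn were expressed in every library, with a summed level of 38519 to 54515 CPM in KO Treg, 46523 to 57460 CPM in KO vehicle and 39585 to 54802 CPM in WT vehicle. Some libraries held transcripts of other tissues: placenta most in KO Treg 2 and KO vehicle 1, smooth muscle most in WT vehicle 2, 3 and 4, and brown adipocyte most in WT vehicle 1. In bulk tissue, fewer cells of a type and less RNA per cell cannot be told apart.

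Averaged over the 12 libraries, Ghr was the most abundant of the 8 transcripts at 575 ± 159 CPM (SD, n = 12 here and for the next values), and its lowest library (329 CPM) lay above the highest of Nr3c1 (233 CPM). Nr3c1 averaged 205 ± 19.4 CPM. Esr1 at 93.4 ± 17.7 CPM and Prlr at 81.2 ± 15.2 CPM did not differ beyond their spread. Hsd11b1 averaged 21.3 ± 5.76 CPM and lay below the lowest Prlr library (48.7 CPM) and above the highest Greb1 library (11.5 CPM) in all 12 libraries. Greb1 at 5.62 ± 3.37 CPM and Pgr at 4.06 ± 3.70 CPM overlapped each other, and Nr3c2 was lowest at 0.486 ± 0.286 CPM. The genes also differed in how steady they were. The coefficient of variation over the 12 libraries was 9.48% for Nr3c1, near 19% for Esr1 (19.0%) and Prlr (18.8%), 60.0% for Greb1 and 91.0% for Pgr.

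**Figure D1:**
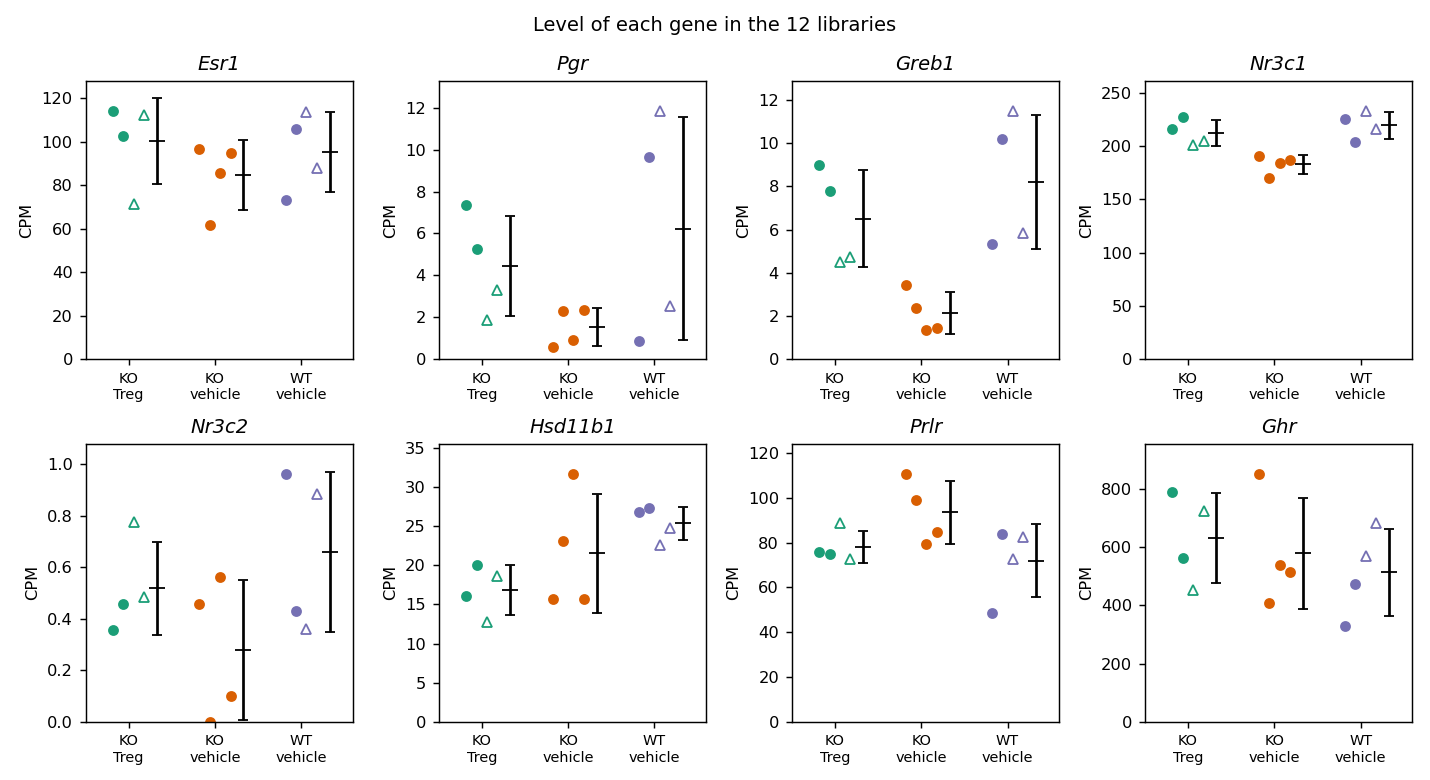
CPM of each gene (vertical axis, linear from 0) in KO Treg, KO vehicle and WT vehicle; each point is 1 library, filled circles for the lower and open triangles for the higher series of animal numbers, and the black bar is the mean ± SD of 4 libraries. Greb1 and Nr3c1 are lowest in the 4 KO vehicle libraries, and Pgr spans 0.885 to 11.9 CPM within WT vehicle.

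Greb1 encodes a cofactor of the estrogen receptor that is induced by estrogen in breast cancer cells and in the uterus. Its gene lies on the minus strand of chromosome 12, at 16670615 to 16800886 (GRCm38), and its exons overlap those of the antisense gene Gm48140 on the opposite strand. RefSeq (GRCm38.p6) lists 2 start sites for it. The 250 bases before each of them are shown because Greb1 is the estrogen-induced gene of the set and its KO vehicle levels stood apart; estrogen receptor half-sites were searched in them. The capitals mark GGTCA or its complement TGACC.

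Greb1 upstream start, chr12:16800887-16801136, minus strand: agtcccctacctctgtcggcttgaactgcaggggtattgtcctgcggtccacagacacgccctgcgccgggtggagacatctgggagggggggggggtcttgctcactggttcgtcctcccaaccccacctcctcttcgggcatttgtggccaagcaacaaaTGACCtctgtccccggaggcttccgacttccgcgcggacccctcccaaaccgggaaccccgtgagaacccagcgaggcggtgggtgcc
Greb1 downstream start, chr12:16757240-16757489, minus strand: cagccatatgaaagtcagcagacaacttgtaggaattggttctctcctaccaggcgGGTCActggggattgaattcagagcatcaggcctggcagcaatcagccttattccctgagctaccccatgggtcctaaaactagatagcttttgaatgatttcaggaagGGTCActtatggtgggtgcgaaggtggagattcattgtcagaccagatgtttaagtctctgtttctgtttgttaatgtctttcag

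One half-site lies in the first window and 2 lie in the second. Such half-sites are common: GGTCA on either strand is present in 35.2% of the 32851 windows of this length in the RefSeq table. The full palindrome GGTCANNNTGACC is in 0.0639% of them and in none of the 12 windows that belong to 7 of the 8 genes. The letters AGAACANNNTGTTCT, the palindrome bound by the glucocorticoid and progesterone receptors, were in none of the 12 either (0.00913% of all windows). TTCNNNGAA, the palindrome bound by STAT5, was in 1 window each of Esr1 and Prlr, where 7.02% of all windows hold it. These are matches of letters, and which start site was used cannot be read from 3' counts.

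The Greb1 level was 9.01, 7.76, 4.51 and 4.73 CPM in KO Treg 1 to 4, 3.42, 2.38, 1.35 and 1.42 CPM in KO vehicle 1 to 4, and 5.31, 10.2, 11.5 and 5.83 CPM in WT vehicle 1 to 4. Every KO vehicle library lay below every library of the other groups, and KO Treg and WT vehicle overlapped. The counts behind these levels were 29 to 76 in KO Treg, 12 to 30 in KO vehicle and 46 to 95 in WT vehicle, so the KO vehicle values carry the largest counting error. On the log2 scale Greb1 differed by -1.92 ± 0.36 (SE) between KO vehicle and WT vehicle, the contrast for which it was listed, by 1.61 ± 0.36 between KO Treg and KO vehicle, and by -0.31 ± 0.33 between KO Treg and WT vehicle. The first and second of these share the KO vehicle libraries, so a low level there enters both. Within the lower number series, which holds all 4 KO vehicle animals, the log2 differences were -1.84 for KO vehicle against WT vehicle and 1.97 for KO Treg against KO vehicle. For KO Treg against WT vehicle the direction turned with the series, with 0.12 in the lower and -0.89 in the higher alone.

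Esr1, which encodes the receptor that acts on Greb1 and on Pgr in breast cancer cells and in the uterus, differed far less. Its level was 114, 103, 71.5 and 112 CPM in KO Treg 1 to 4, 96.8, 61.6, 85.4 and 94.7 CPM in KO vehicle 1 to 4, and 73.2, 106, 114 and 88.0 CPM in WT vehicle 1 to 4. All 3 groups overlapped. The log2 fold change was 0.24 ± 0.18 (SE) for KO Treg against KO vehicle (edgeR adjusted p = 0.774) and 0.08 ± 0.18 for KO Treg against WT vehicle (edgeR adjusted p = 0.99999), and KO vehicle differed from WT vehicle by -0.17 ± 0.18. Esr1 lies on chromosome 10 at 4611593 to 5005614 (GRCm38, plus strand).

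Pgr, the progesterone receptor gene and a classical estrogen target in the uterus (chromosome 9, 8899833 to 8968611, plus strand), was scarce and variable. Its level was 7.35, 5.25, 1.86 and 3.28 CPM in KO Treg 1 to 4, 0.571, 2.27, 0.901 and 2.34 CPM in KO vehicle 1 to 4, and 0.885, 9.65, 11.9 and 2.53 CPM in WT vehicle 1 to 4. WT vehicle held both the highest library and one of the 3 lowest, and all groups overlapped. The log2 fold change was 1.53 ± 0.75 (SE) for KO Treg against KO vehicle (edgeR adjusted p = 0.605) and -0.43 ± 0.69 for KO Treg against WT vehicle (edgeR adjusted p = 0.99999); KO vehicle differed from WT vehicle by -1.96 ± 0.75. Library counts of Pgr ran from 5 to 90.

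**Figure D2:**
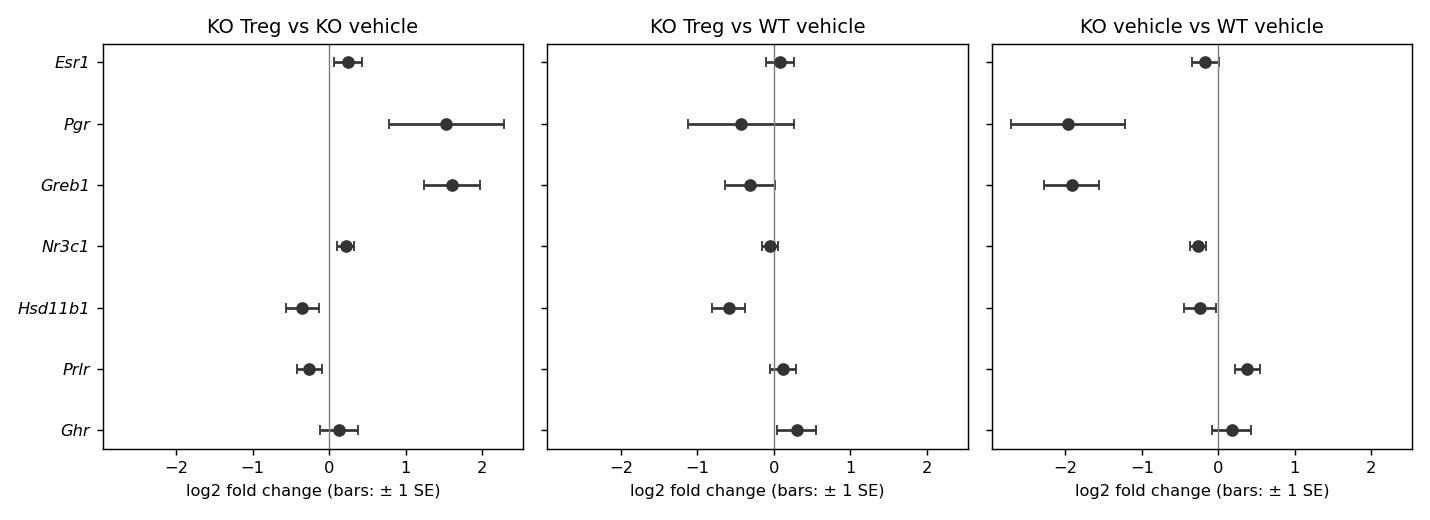
Log2 fold change of the 7 genes that passed the filter (rows) in each comparison (panels), first-named group over second; points are edgeR estimates and bars ± 1 SE. Pgr and Greb1 lie farthest from 0 in the comparisons that involve KO vehicle, at 1.53 and 1.61 for KO Treg against KO vehicle, and of the other 5 genes Hsd11b1 lies farthest, at -0.59 for KO Treg against WT vehicle.

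Smooth muscle transcripts, which the uterus and vessel walls express, moved with these values. The 8 listed genes (Actg2, Myh11, Des, Cnn1, Acta2, Tagln, Smtn and Synpo2) had log2 fold changes below 0 in 8 of 8 for KO vehicle against WT vehicle and above 0 in 7 of 8 for KO Treg against KO vehicle, none of which passed (edgeR, adjusted p of 0.05). Their summed level was 207 to 1204 CPM in KO Treg, 312 to 822 CPM in KO vehicle and 244 to 2136 CPM in WT vehicle. Acta2 weighed most in this sum in every library, with 422 of the 822 CPM in KO vehicle 4. Actg2 ran from 0.466 CPM in KO Treg 3 to 232 CPM in WT vehicle 3. In KO vehicle it was at 4.39 to 5.89 CPM in replicates 1 to 3 and at 41.8 CPM in replicate 4. WT vehicle 2, 3 and 4 (1438, 2136 and 1248 CPM) had the highest sums of the 12 libraries, and WT vehicle 1 (244 CPM) had the lowest but one. Pgr was high where this sum was high, in WT vehicle 2 and 3, and at 0.885 CPM in WT vehicle 1 and 1.86 CPM in KO Treg 3, the libraries with the lowest sums. With the mean log2 CPM of the 8 genes as a covariate, the Pgr difference between KO vehicle and WT vehicle was -0.45 ± 0.54, against -1.96 without it, and that between KO Treg and WT vehicle turned to 0.56 ± 0.45. The Esr1 difference between KO vehicle and WT vehicle, -0.17 without the covariate, was 0.09 ± 0.17 with it. KO Treg 1 (7.35 CPM) had more Pgr than WT vehicle 4 (2.53 CPM), although its sum was lower (722 against 1248 CPM). Greb1 was likewise highest in WT vehicle 3 and 2 (11.5 and 10.2 CPM), the libraries with the highest sums, but it did not follow the sum in every library. WT vehicle 1 (5.31 CPM) and KO Treg 3 (4.51 CPM), both low in smooth muscle transcripts, had more Greb1 than KO vehicle 4 (1.42 CPM), where the sum was 822 CPM. With the covariate Greb1 differed by -1.54 ± 0.37 between KO vehicle and WT vehicle and by 1.43 ± 0.34 between KO Treg and KO vehicle. The cause of the Pgr and Greb1 differences was not tested.

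**Figure D3:**
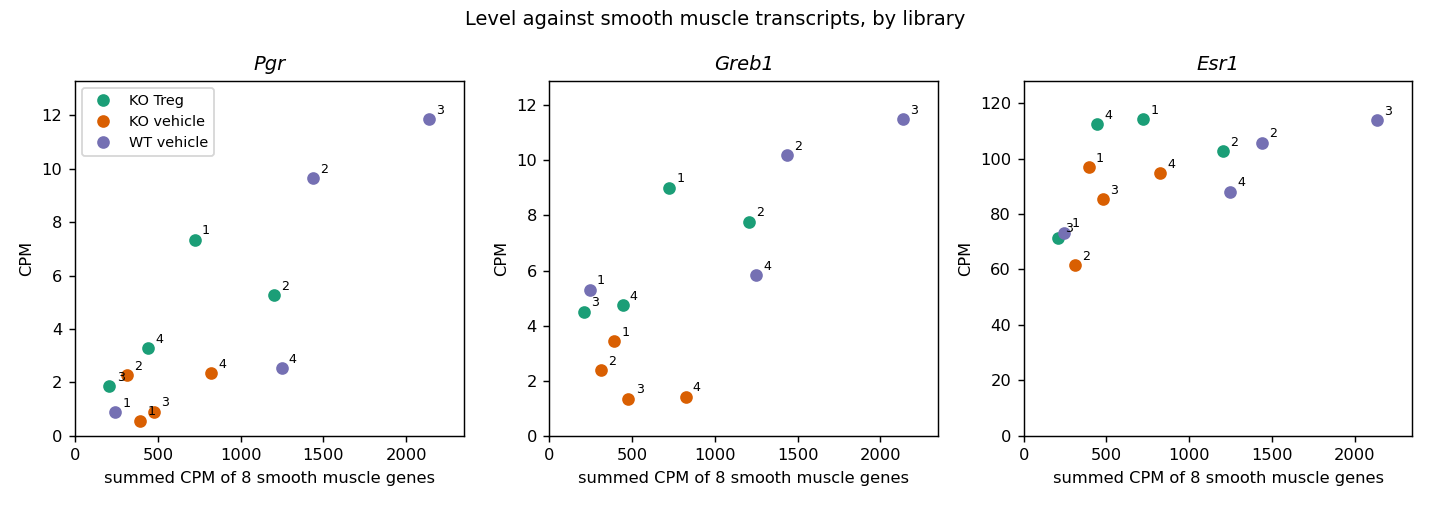
CPM of Pgr, Greb1 and Esr1 (vertical axes) against the summed CPM of 8 smooth muscle genes (horizontal axis) in the 12 libraries, with the replicate number beside each point. Pgr and Greb1 are highest in WT vehicle 2 and 3, where the sum is 1438 and 2136 CPM, and the 4 KO vehicle libraries have the least Greb1 at sums of 312 to 822 CPM.

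Transcripts of other tissues and cell types were present at levels that differed widely between the lists. Of the uterine epithelium and stroma list (Foxa2, Wnt7a, Ovgp1, Hoxa10, Hoxa11, Hand2, Wnt4 and Msx1) the sum was 54.3 to 70.3 CPM in KO Treg, 51.8 to 70.1 CPM in KO vehicle and 57.8 to 92.7 CPM in WT vehicle; Wnt7a, which marks the epithelium, was at 0 in all libraries. The 5 tested genes of this list were all below 0 for KO vehicle against WT vehicle (median log2 fold change -0.49) and all above 0 for KO Treg against KO vehicle (median 0.26), the same directions as Greb1, and none passed. Hoxa10 and Hoxa11 made up most of the uterine sum. The mesothelium genes Msln, Upk3b, Upk1b, Lrrn4 and Wt1 also took these directions in 4 of 5, with 1 the other way in each comparison, and none passed. Mammary epithelium genes summed to 4.98 to 19.6 CPM in KO Treg, 6.96 to 15.9 CPM in KO vehicle and 6.51 to 19.5 CPM in WT vehicle, with Krt5, Csn3, Wap and Elf5 at 0 throughout. Ovary genes summed to 5.58 to 15.5 CPM in KO Treg, 3.94 to 11.7 CPM in KO vehicle and 4.69 to 33.1 CPM in WT vehicle, with the follicle-stimulating hormone receptor Fshr at 0 throughout. Some members of these lists were detected in every library, such as Ovgp1 (uterine list), Krt8 and Krt18 (mammary list) and Star (ovary list). Others were near 0, with 0 to 3 counts of Foxa2, 0 to 5 of Krt14, 0 to 4 of Csn2 and 0 to 3 of Lhcgr. Genes at 0 therefore do not show that a tissue was absent, and the detected genes do not show that it was present. Placental genes were highest in KO Treg 2 (271 CPM) and KO vehicle 1 (105 CPM) and at 12.8 to 32.2 CPM in the other 10 libraries. In those 10 most of the sum was Psg23 alone, as in KO Treg 3 (31.9 CPM), where Tpbpa and Prl3b1 were at 0. A few counts of other placental genes were seen in WT vehicle 4 (11 of Ceacam11, 6 of Tpbpa, 4 of Prl3b1) and WT vehicle 2 (7 of Prl3b1). Without KO Treg 2 and KO vehicle 1, Greb1 differed by -2.23 between KO vehicle and WT vehicle and by 1.82 between KO Treg and KO vehicle. Brown adipocyte genes summed to 96.7 to 422 CPM in KO Treg, 47.9 to 2126 CPM in KO vehicle and 126 to 5535 CPM in WT vehicle. The remaining lists summed to 91.9 to 207 CPM (mesothelium), 1527 to 3388 CPM (fibroblasts and progenitors), 906 to 1157 CPM (endothelium), 194 to 295 CPM (macrophages), 0.359 to 5.28 CPM (lymphocytes) and 1.29 to 11.3 CPM (hepatocytes) over all libraries. Foxp3, the transcription factor gene of regulatory T cells, was at 0 in all libraries but KO vehicle 4 (4 counts) and WT vehicle 4 (1 count), too few to compare. The groups overlapped in each of the 13 marker lists in all 3 comparisons. The part of these other cells in the values of the 8 genes was not tested. The smooth muscle covariate above is no such test, because it comes from the same libraries and itself differed in level between the groups.

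Nr3c1, the glucocorticoid receptor gene (chromosome 18, 39410545 to 39519421, minus strand), was the steadiest of the 8 and separated KO vehicle from the other groups by a small margin. Its level was 216, 227, 201 and 205 CPM in KO Treg 1 to 4, 190, 170, 184 and 187 CPM in KO vehicle 1 to 4, and 225, 203, 233 and 216 CPM in WT vehicle 1 to 4. All 4 KO vehicle libraries lay below all libraries of both other groups, which overlapped each other. The log2 fold change was 0.21 ± 0.11 (SE) for KO Treg against KO vehicle, higher in 4 of 4 libraries, and did not pass the threshold (edgeR adjusted p = 0.601). KO Treg differed from WT vehicle by -0.05 ± 0.11 (edgeR adjusted p = 0.99999), and KO vehicle from WT vehicle by -0.26 ± 0.11. Within the lower number series Nr3c1 differed by 0.28 between KO Treg and KO vehicle and by -0.23 between KO vehicle and WT vehicle. With the smooth muscle covariate these differences were 0.20 and -0.24.

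Nr3c2, the mineralocorticoid receptor gene (chromosome 8, 76899442 to 77245012, plus strand), was barely detected. It had 3 to 5 counts in KO Treg, 0 to 5 in KO vehicle and 2 to 12 in WT vehicle, or 0.356 to 0.777, 0 to 0.563 and 0.359 to 0.965 CPM in that order. These counts were too few to compare the groups, and the gene was not tested.

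Hsd11b1 encodes the enzyme of the endoplasmic reticulum that regenerates active glucocorticoid from its inert 11-keto form, mainly in fat and liver (chromosome 1, 193221634 to 193264075, minus strand). Its level was 16.1, 19.98, 12.7 and 18.6 CPM in KO Treg 1 to 4, 15.6, 23.1, 31.7 and 15.7 CPM in KO vehicle 1 to 4, and 26.8, 27.3, 22.6 and 24.8 CPM in WT vehicle 1 to 4. All 4 KO Treg libraries lay below all 4 WT vehicle libraries, while KO vehicle spanned both. The log2 fold change for KO Treg against WT vehicle was -0.59 ± 0.21 (SE), lower in 4 of 4 libraries; it had an unadjusted edgeR p of 0.0136 and did not pass after adjustment over all genes (edgeR adjusted p = 0.99999). For KO Treg against KO vehicle it was -0.35 ± 0.21 (edgeR adjusted p = 0.698), and KO vehicle differed from WT vehicle by -0.24 ± 0.21. The KO Treg and WT vehicle difference was -0.58 within the lower and -0.60 within the higher number series.

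H6pd, which supplies the cofactor of this enzyme inside the endoplasmic reticulum, was at 191, 183, 256 and 205 CPM in KO Treg 1 to 4, 290, 252, 253 and 262 CPM in KO vehicle 1 to 4, and 202, 214, 233 and 237 CPM in WT vehicle 1 to 4. KO vehicle lay above WT vehicle in every library and overlapped KO Treg. Its log2 fold change was -0.34 for KO Treg against KO vehicle and 0.25 for KO vehicle against WT vehicle, and neither passed (edgeR adjusted p = 0.461 and 0.440). Hsd11b2, which inactivates glucocorticoids, averaged 1.04 CPM in KO Treg, 1.25 CPM in KO vehicle and 1.58 CPM in WT vehicle; it was chosen for naming after its values were seen.

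Prlr, the prolactin receptor gene (chromosome 15, 10177238 to 10349180, plus strand), also binds placental lactogens. Its level was 75.6, 75.0, 88.9 and 72.8 CPM in KO Treg 1 to 4, 111, 99.0, 79.5 and 84.6 CPM in KO vehicle 1 to 4, and 48.7, 84.0, 72.6 and 82.4 CPM in WT vehicle 1 to 4. KO vehicle held the 2 highest libraries and WT vehicle 1 the lowest, and all groups overlapped. The log2 fold change was -0.26 ± 0.16 (SE) for KO Treg against KO vehicle (edgeR adjusted p = 0.705) and 0.12 ± 0.16 for KO Treg against WT vehicle (edgeR adjusted p = 0.99999), and KO vehicle differed from WT vehicle by 0.38 ± 0.16. Prlr exons overlap those of Gm21973 on the same strand, so its reads are uncertain, and the counts do not separate its long and short isoforms.

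Ghr, the growth hormone receptor gene (chromosome 15, 3317760 to 3583492, minus strand), was abundant in every library. Its level was 790, 563, 451 and 725 CPM in KO Treg 1 to 4, 853, 408, 539 and 514 CPM in KO vehicle 1 to 4, and 329, 475, 569 and 682 CPM in WT vehicle 1 to 4. KO vehicle 1 was the highest and WT vehicle 1 the lowest library, with wide overlap of the groups. The log2 fold change was 0.13 ± 0.25 (SE) for KO Treg against KO vehicle (edgeR adjusted p = 0.935) and 0.30 ± 0.25 for KO Treg against WT vehicle (edgeR adjusted p = 0.99999), and KO vehicle differed from WT vehicle by 0.17 ± 0.25. Without KO vehicle 1 this last difference was -0.091, so its direction rests on that library.

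Greb1, chosen by its low KO vehicle level, is left out of the counts of tests. Of the other 6 tested genes, 0 passed an edgeR adjusted p of 0.05 for KO Treg against KO vehicle, where 0.00821% of all 12175 genes tested passed. In that comparison 0 of the 6 had an unadjusted edgeR p under 0.05 (8.77% of all genes), and DESeq2 called 0 of them (0.581% of all genes to which it gave an adjusted p). For KO Treg against WT vehicle 0 of the 6 passed in edgeR, where 0% of all genes did, 1 had an unadjusted edgeR p under 0.05 (Hsd11b1; 2.87% of all genes), and DESeq2 called 0 (0.00822% of all genes). For KO vehicle against WT vehicle Greb1, which had been chosen on this contrast, was the 1 gene called, and 0.279% of all genes were. That call was lost (count 0) when KO Treg 4, any 1 KO vehicle library, WT vehicle 2 or WT vehicle 3 was left out, with the number series or the smooth muscle mean as a covariate, in the lower series alone, and without KO Treg 2 and KO vehicle 1 together, while the log2 fold change stayed between -2.24 and -1.54. Groups did not overlap for 1 of the 6 between KO Treg and KO vehicle (Nr3c1), where 5.04% of all genes did not. They did not overlap for 1 of the 6 between KO Treg and WT vehicle (Hsd11b1, where 1.63% of all genes did not). Between KO vehicle and WT vehicle it was also 1 of the 6 (Nr3c1, where 6.51% of all genes did not). Greb1 did not overlap in either comparison with KO vehicle, but it was chosen by its low level there and is not counted. The median log2 fold change of the 7, Greb1 included, was 0.21, -0.05 and -0.24 in the order of these comparisons, and that of all genes was 0.00 in each.

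Genes that follow the same hormones were read from 7 lists: estrogen response, glucocorticoid response, mineralocorticoid response, prolactin and growth hormone signalling, receptor chaperones and coregulators, steroid enzymes, and other hormone receptors. They held 91 different tested genes besides the 8. edgeR called none of the 91 in any comparison, against 0.00821%, 0% and 0.279% of all genes for KO Treg against KO vehicle, KO Treg against WT vehicle and KO vehicle against WT vehicle. At an unadjusted p under 0.05 there were 14, 4 and 21 of the 91 in that order (15.4%, 4.40% and 23.1%, where 8.77%, 2.87% and 12.4% of all genes had one). DESeq2 called 0, 0 and 3 of the 91, the last being Dusp1, Klf9 and Lcn2 for KO vehicle against WT vehicle, where it called 2.13% of all genes.

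Of 19 tested glucocorticoid response genes, 11 had a log2 fold change above 0 for KO Treg against KO vehicle, 7 for KO Treg against WT vehicle and 7 for KO vehicle against WT vehicle, with medians of 0.09, -0.09 and -0.06 that lie near the 0.00 of all genes. Klf9, a transcription factor gene induced by glucocorticoids, was at 358 ± 39.3 CPM in KO Treg, 279 ± 28.4 CPM in KO vehicle and 407 ± 72.3 CPM in WT vehicle (SD, n = 4 each). KO vehicle and WT vehicle did not overlap, and the log2 fold change of -0.54 ± 0.14 between them did not pass (edgeR adjusted p = 0.117). Dusp1, a phosphatase gene induced by glucocorticoids, differed the other way, by 0.62 ± 0.14 for KO vehicle against WT vehicle (edgeR adjusted p = 0.0836). Fkbp5 and Tsc22d3, induced by glucocorticoids in many tissues and chosen for naming after their values were seen, differed by -0.49 ± 0.33 and -0.04 ± 0.20 in that comparison (edgeR adjusted p = 0.604 and 0.968).

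Lcn2, which encodes the secreted protein lipocalin 2 and stands in both corticoid lists, had the largest log2 fold change of the 91 in any of the 3 comparisons. Its level was 3.79, 1.26, 5.44 and 2.43 CPM in KO Treg 1 to 4, 0.685, 2.17, 1.35 and 1.52 CPM in KO vehicle 1 to 4, and 6.51, 3.22, 10.1 and 24.7 CPM in WT vehicle 1 to 4. KO vehicle lay below WT vehicle in every library, with WT vehicle 4 far above the rest, and the log2 fold change of -2.92 ± 0.62 did not pass (edgeR adjusted p = 0.0836). Of 5 tested mineralocorticoid response genes, 4, 3 and 1 were above 0 for KO Treg against KO vehicle, KO Treg against WT vehicle and KO vehicle against WT vehicle. One of them, the prostaglandin D synthase gene Ptgds, averaged 1.54 ± 1.27 CPM in KO Treg, 0.299 ± 0.242 CPM in KO vehicle and 1.47 ± 0.747 CPM in WT vehicle, and its log2 fold changes of 2.32 ± 0.74 and -2.25 ± 0.74 in the comparisons with KO vehicle did not pass (edgeR adjusted p = 0.362 and 0.191). KO vehicle levels of Ptgds are near the level of 3 counts. Zbtb16, a transcription factor gene induced by corticosteroids, was at 32.99, 45.2, 32.98 and 43.5 CPM in KO vehicle 1 to 4 and 130, 31.6, 58.0 and 41.4 CPM in WT vehicle 1 to 4, and its log2 fold change of -0.76 ± 0.35 did not pass (edgeR adjusted p = 0.403). The epithelial sodium channel genes Scnn1a, Scnn1b and Scnn1g did not reach the filter. Of the 5 tested genes all but Ptgds are also in the glucocorticoid response list, so the mineralocorticoid list adds little of its own.

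In the estrogen response list, 7, 8 and 8 of 16 tested genes had a log2 fold change above 0 for KO Treg against KO vehicle, KO Treg against WT vehicle and KO vehicle against WT vehicle, with medians of -0.05, -0.05 and 0.01. The list was thus split in direction where Greb1 was lower. C3, the complement component gene, was at 1617 ± 351 CPM in KO vehicle and 2697 ± 655 CPM in WT vehicle (SD, n = 4 each; log2 fold change -0.74 ± 0.24, edgeR adjusted p = 0.194). Fos, an immediate early gene, was at 5.98 ± 2.88 CPM in KO vehicle and 2.59 ± 0.907 CPM in WT vehicle (1.21 ± 0.38, edgeR adjusted p = 0.175). Wfs1, which encodes a membrane protein of the endoplasmic reticulum, was at 15.3 ± 1.78 CPM in KO vehicle and 12.2 ± 0.589 CPM in WT vehicle (0.33 ± 0.15, edgeR adjusted p = 0.361). Ltf, Areg, Tff1 and Pdzk1 did not reach the filter.

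Downstream of Prlr and Ghr, 6, 4 and 5 of 15 tested signalling genes were above 0 in the 3 comparisons, with medians of -0.13, -0.14 and -0.06. Socs2, a feedback inhibitor induced by growth hormone, was at 86.0 ± 17.1 CPM in KO Treg, 77.3 ± 10.7 CPM in KO vehicle and 114 ± 38.0 CPM in WT vehicle, and its log2 fold change of -0.56 ± 0.23 between KO vehicle and WT vehicle did not pass (edgeR adjusted p = 0.318). Socs1, another inhibitor of this family, differed by -0.75 ± 0.33 for KO Treg against KO vehicle (edgeR adjusted p = 0.523). Igfals, which encodes a partner of circulating IGF1, differed by -0.64 ± 0.28 for KO vehicle against WT vehicle (edgeR adjusted p = 0.368). Stat5a was at 136 ± 10.4 CPM in KO Treg, 100 ± 24.8 CPM in KO vehicle and 135 ± 43.7 CPM in WT vehicle, with a log2 fold change of 0.44 ± 0.21 for KO Treg against KO vehicle that did not pass (edgeR adjusted p = 0.569); Stat5a was chosen for naming after its values were seen.

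Steroid receptors are held in a state ready for hormone by the chaperones HSP90 and HSC70 with their partners. Of 14 tested chaperone and coregulator genes, 4, 3 and 6 were above 0 in the 3 comparisons, with medians of -0.12, -0.15 and -0.02. The summed level of this list was 3676 to 4652 CPM in KO Treg, 4703 to 6271 CPM in KO vehicle and 4078 to 5489 CPM in WT vehicle. KO Treg and KO vehicle did not overlap, the only such case among the pathway lists in the 3 comparisons. Abundant chaperones weigh most in this sum. Hsp90ab1, the most abundant, overlapped (2224 CPM in KO Treg 2, 2150 CPM in KO vehicle 4), while Hspa8 and Hsp90aa1 did not. Hspa8, which encodes HSC70, was at 473 ± 54.9 CPM in KO Treg and 667 ± 102 CPM in KO vehicle (log2 fold change -0.50 ± 0.14, edgeR adjusted p = 0.306). Hsp90aa1 and Hsp90ab1, which encode the forms of cytosolic HSP90, differed by -0.73 ± 0.23 and -0.31 ± 0.15 in the same comparison (edgeR adjusted p = 0.356 and 0.598).

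Of 15 tested steroid enzyme genes, 9, 5 and 4 were above 0 in the 3 comparisons, with medians of 0.16, -0.11 and -0.22. Cyp7b1, a hydroxylase of oxysterols and steroids, was at 4.02 ± 1.03 CPM in KO Treg, 2.29 ± 0.734 CPM in KO vehicle and 4.41 ± 1.19 CPM in WT vehicle, and none of its differences passed (lowest edgeR adjusted p = 0.197). Hsd17b4, a peroxisomal enzyme that also oxidises estradiol, differed by -0.37 ± 0.13 for KO Treg against KO vehicle (edgeR adjusted p = 0.404). The genes of the enzymes that make estrogen and progesterone, Cyp19a1 and Hsd3b1, did not reach the filter. Of 14 other hormone receptor genes, 10, 4 and 4 were above 0, with medians of 0.07, -0.05 and -0.13. The oxytocin receptor gene Oxtr, chosen for naming after its values were seen, averaged 383 ± 156 CPM in KO Treg, 287 ± 118 CPM in KO vehicle and 275 ± 199 CPM in WT vehicle, above Esr1 and Prlr in each group's mean. The membrane progesterone receptor component gene Pgrmc2 differed by -0.26 ± 0.12 for KO vehicle against WT vehicle (edgeR adjusted p = 0.359). In the same comparison Thrb, a thyroid hormone receptor gene, differed by -0.31 ± 0.18 and Vdr, the vitamin D receptor gene, by 1.26 ± 0.45 (edgeR adjusted p = 0.504 and 0.238). Vdr was scarce, at 1.14 to 5.07 CPM in KO vehicle and 0.563 to 1.71 CPM in WT vehicle, and these groups overlapped.

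**Figure D4:**
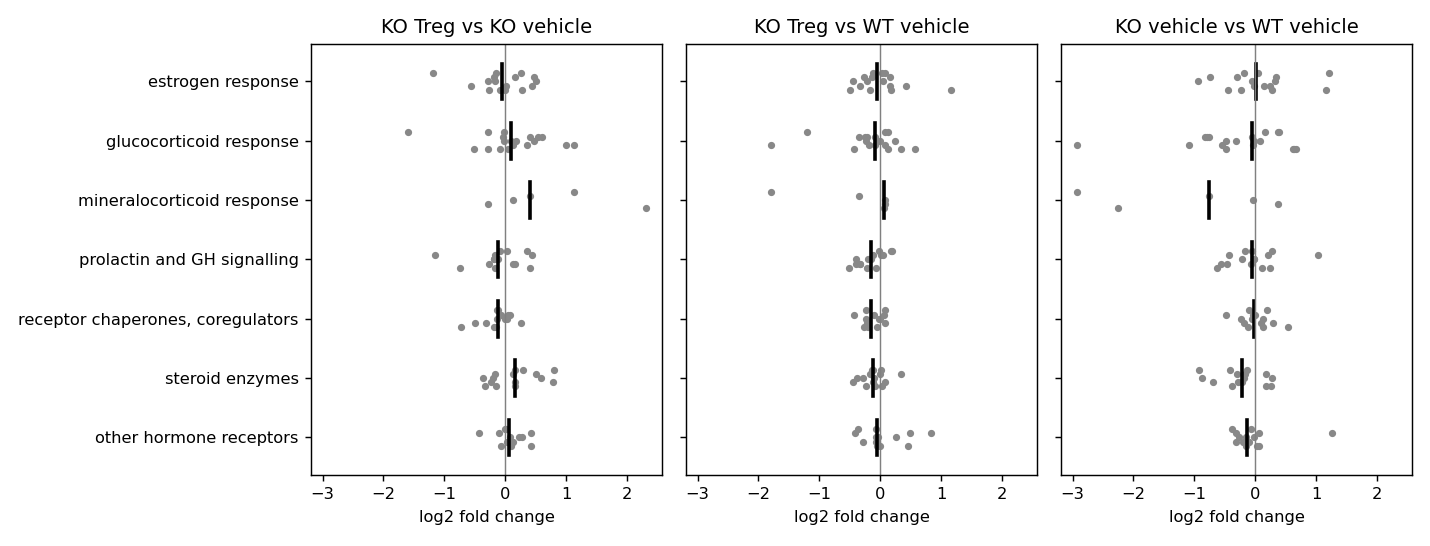
Log2 fold change of each tested gene (grey points) of the 7 lists (rows) in the 3 comparisons (panels), first-named group over second; black bars are list medians. Medians lie within 0.22 of 0, except those of the 5 mineralocorticoid response genes at 0.41 for KO Treg against KO vehicle and -0.76 for KO vehicle against WT vehicle. Both of these medians are the value of a single gene, Zbtb16. All of the 5 but Ptgds are also in the glucocorticoid response list.

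The genes whose log2 CPM followed each of the 7 over the 12 libraries most closely were taken by Pearson r, among tested genes of at least 5 CPM on average, as a description without a test. The libraries share their groups, number series and marker levels, and each list of 3 was picked from all genes of that level. Greb1 was followed by Mettl7a1 (r = 0.895), Cirh1a (r = 0.893) and Sparcl1 (r = 0.885), and Pgr by Aldh1b1 (0.927), Meis2 (0.910) and Tnfrsf19 (0.893). Esr1 was followed by Ilk (0.909), Pip5k1c (0.892) and Tspan2 (0.877), and the count of Pip5k1c was an even number in every library. Nr3c1 was followed by Mapk14 (0.912), Slc25a29 (0.877) and Zmynd11 (0.875), and Hsd11b1 by Timmdc1 (0.879), B3gat3 (0.823) and Mpzl2 (0.816). Prlr was followed by Arhgap18 (0.904), Sept11 (0.899) and Ptprk (0.891), and Ghr by Dmwd (0.929), Ctsl (0.903) and Adam15 (0.903).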

How the data were processed

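Raw counts for each gene symbol were deposited by the authors as 1 table of 20632 genes for each of 12 libraries, made with a 3' end (QuantSeq) kit per the labels' protocols. TopHat2 2.1.1, HTSeq 0.6.1, BWA 0.7.12, SAMtools 1.3.1 and the build mm10 are named in the lists made per the submitters' processing notes, without their roles. Neither strand setting nor annotation is given in the sources used here, so a gene and an antisense partner cannot be told apart. Genes kept by filterByExpr (12175) were given TMM factors and the robust quasi-likelihood test of edgeR 4.0.16 (R 4.3.3). One fit held all 3 groups without covariates, with Benjamini-Hochberg adjustment over all genes tested (threshold 0.05). SEs are absolute log2 fold changes divided by the square root of F. A prior count of 2 was added for log2 CPM. The labels give each library a different animal number, so p-values measure the spread between animals, with technical spread included. Replicate numbers, given in accession order, do not pair samples. No pair of libraries agreed within sampling noise.

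The genes, the 7 pathway lists and 13 marker lists, the tests and the alternatives were chosen with earlier results of these data known, so counts over the lists are descriptions. Named were the 8 genes, any list gene called or else the 3 of smallest p in each list, the 3 genes most like each of the 7 that were tested, the marker lists and Tnfrsf11a; the text marks the few genes named outside this rule. Gene positions are from GENCODE M21 (GRCm38) and upstream sequences from RefSeq GRCm38.p6, used for 7 of the 8 genes. The fit was tested on simulated data. The alternatives tried were DESeq2 1.42.0, upper quartile and RLE scaling, 2 other filters (none, or 10 counts in 8 libraries), fits of the groups compared alone, the number series or the smooth muscle mean as a covariate, the lower series alone, and leaving out each library; the higher series alone and a fit without the 2 libraries rich in placental transcripts were added after seeing the data.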

Additional observations from a re-analysis of the deposited data

How the results depend on the processing

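Of 469 alternative log2 fold changes of the 7 tested genes, 12 changed sign. Moves of over 1 SD that kept the sign were looked for only in Greb1 and in KO vehicle against WT vehicle, where 2 were found. For the other values the size of a move was not examined. The cause was not tested in any case. Of the sign changes 9 were in KO Treg against WT vehicle. In the lower number series alone Pgr was at 0.29, Nr3c1 at 0.048 and Greb1 at 0.12, in the higher series alone Esr1 was at -0.14 and Ghr at -0.093, and with the smooth muscle covariate Pgr was at 0.56. Leaving out 1 library gave -0.033 to 0.21 for Esr1, -0.82 to 0.056 for Pgr and -0.030 to 0.20 for Prlr, and the signs turned without WT vehicle 1 (Esr1 and Prlr) or WT vehicle 3 (Pgr). For KO vehicle against WT vehicle, Esr1 was at 0.090 with the smooth muscle covariate, and Ghr at -0.091 without KO vehicle 1 and at -0.081 without KO Treg 2 and KO vehicle 1 together. Greb1 moved to -0.89 for KO Treg against WT vehicle in the higher series alone, and Pgr to -0.45 for KO vehicle against WT vehicle with the smooth muscle covariate.

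Of the 7 genes, DESeq2 called 1 for KO Treg against KO vehicle (edgeR 0); it was Greb1, which was chosen for its low KO vehicle level, so the call is no test. For KO vehicle against WT vehicle the edgeR count of 1 became 0 with the number series covariate, in the lower series alone, with the smooth muscle covariate and without the 2 libraries rich in placental transcripts, and ran from 0 to 1 when each library was left out.

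Over all genes, the single call for KO Treg against KO vehicle became 0 with RLE scaling, the filter of 10 counts in 8 libraries, a fit of these groups alone, either covariate, the lower series alone, without the libraries rich in placental transcripts, and without any 1 library; DESeq2 called 68. For KO Treg against WT vehicle the 0 calls became 1 with DESeq2 and 3 in the higher series alone. For KO vehicle against WT vehicle the 34 calls became 259 with DESeq2, 3 without the libraries rich in placental transcripts, and 0 with either covariate or in the lower series alone. Leaving out 1 library gave 1 (KO vehicle 1) to 113 (WT vehicle 4).

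No paired analysis was possible because the replicate numbers were given in accession order and pair no samples. All KO vehicle animals belong to the lower number series, so within the higher series no value with KO vehicle can be had. Depth limits Nr3c2, Pgr and Greb1, whose libraries hold as few as 0, 5 and 12 counts.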
